A study of Mus musculus with 17 samples.

Results

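β cell disallowed genes are genes that most tissues use but that mature β cells keep at very low levels. The group studied here held 10 of them, chosen by name and read across all 6 groups of islet libraries: *Ldha*, *Slc16a1*, *Hk1*, *Acot7*, *Oat*, *Pdgfra*, *Cxcl12*, *Igfbp4*, *Smad3* and *Zfp36l1*. They were 10 of 78239 gene identifiers in a table of wildtype and *Pax4* R192H islets and 10 of 73212 in a table of control and *Pax4* βiKO islets. All 10 passed the filter on low counts in both tables, alongside 19137 tested identifiers in the first and 20167 in the second.

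A β cell couples insulin release to glucose by sending pyruvate into mitochondria, so it keeps lactate dehydrogenase A and the plasma membrane lactate and pyruvate carrier MCT1 (*Slc16a1*) low. With MCT1 present, pyruvate made by exercising muscle could enter the cell and release insulin without glucose. High-affinity hexokinases such as hexokinase 1 work near their full rate even when glucose is low, and β cells hold them low too. Other disallowed genes encode growth factor receptors, secreted factors and regulators that neighbouring stromal, vascular or immune cells of the islet use.

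All mice were male. Wildtype mice and littermates homozygous for *Pax4* R192H (an R200H substitution in the mouse gene, on a C57BL6/N background) were fed a standard chow diet (SCD) and studied at 12 weeks of age, or were fed a high-fat diet (HFD) for 4 weeks and studied at 16 weeks, with 3 libraries in each of these 4 groups. In the second table, 3 *Pax4* βiKO libraries came from mice with both *Pax4* alleles floxed and a tamoxifen-inducible Cre under the *Pdx1* promoter, and 2 control libraries came from floxed mice without Cre. Both of these groups received tamoxifen and were 20 weeks old after 8 weeks of HFD. The *Pdx1* promoter is also used outside β cells, for example in δ cells. Age and diet changed together in the first table, so every HFD against SCD difference belongs to both. The labels do not say whether a library came from 1 mouse or from several, and p-values measure the spread between libraries.

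The 12 libraries of the first table held 24268157 to 42679645 counts, and the 5 of the second 28618835 to 31887537. Values are given as CPM, a share of the normalized library, and each table was normalized on its own, so levels are compared only within a table. The top 2 genes of a library held 36.2% to 53.3% of counts in the first table and 8.68% to 11.1% in the second. Normalization factors followed the groups of the first table. They were 1.054 to 1.298 on SCD, 0.890 to 1.106 in wildtype HFD and 0.692 to 0.823 in *Pax4* R192H HFD. A lower factor raises every CPM of its library. A floor of 3 counts was between 7.03e-06% and 1.24e-05% of a library, which covers counting error only. *Pax4* was listed at 0 in all 17 libraries, which left the genotypes without that check. All 10 β cell markers, among them *Ins1*, *Ins2* and *Slc2a2*, were above 0 in every library. In whole islets, fewer cells of a type and less RNA per cell cannot be told apart. Certain libraries stood apart. Wildtype SCD replicate 2 had a summed level of 10 stromal markers of 402 CPM and *Pax4* R192H SCD replicate 3 had 248 CPM, while the other 10 libraries of the table lay between 112 and 211 CPM. *Pax4* R192H SCD replicate 1 and *Pax4* R192H HFD replicate 1 held 112 and 37.2 CPM of 8 intestinal markers, against 0.751 to 2.06 CPM in the other 10. *Pax4* βiKO replicate 3 held 25.4 CPM of 5 lymphocyte markers, against 0.867 to 2.99 CPM in the other 4 libraries of its table.

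Promoter windows of 300 bases around the RefSeq start (GRCm38.p6), most of each lying before it, are shown for the 2 members that passed the test in a comparison, *Slc16a1* and *Oat*, and for *Ldha*, the partner of *Slc16a1* in lactate handling. Capitals mark matches to ACGTG on either strand (ACGTG or CACGT), the core that hypoxia-inducible factors can bind, which overlaps the E-box CACGTG. The *Slc16a1* window lies on the plus strand at chr3:104638414-104638713, the *Ldha* window on the plus strand at chr7:46845554-46845853 and the *Oat* window on the minus strand at chr7:132576349-132576648.
Slc16a1: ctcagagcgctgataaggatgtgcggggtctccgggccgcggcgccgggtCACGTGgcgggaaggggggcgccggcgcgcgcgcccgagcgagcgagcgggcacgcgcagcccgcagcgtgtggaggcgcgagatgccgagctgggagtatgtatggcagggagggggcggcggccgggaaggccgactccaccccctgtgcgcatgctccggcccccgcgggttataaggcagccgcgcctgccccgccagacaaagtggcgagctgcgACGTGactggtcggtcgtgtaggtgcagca
Ldha: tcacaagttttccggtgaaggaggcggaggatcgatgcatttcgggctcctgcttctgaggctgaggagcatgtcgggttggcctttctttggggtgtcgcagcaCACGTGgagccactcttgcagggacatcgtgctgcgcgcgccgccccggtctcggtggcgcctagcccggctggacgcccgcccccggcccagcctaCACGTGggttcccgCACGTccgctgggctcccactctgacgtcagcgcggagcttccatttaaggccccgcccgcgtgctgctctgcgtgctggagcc
Oat: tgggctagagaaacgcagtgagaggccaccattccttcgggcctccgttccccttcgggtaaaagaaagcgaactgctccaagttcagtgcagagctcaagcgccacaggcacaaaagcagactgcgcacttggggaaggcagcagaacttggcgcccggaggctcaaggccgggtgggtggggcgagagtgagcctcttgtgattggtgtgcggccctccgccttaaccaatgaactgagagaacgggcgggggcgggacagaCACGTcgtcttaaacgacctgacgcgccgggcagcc
The core was found in 19.6% of 32851 mouse promoter windows and the full E-box in 7.15%. *Ldha* held 2 E-boxes, *Slc16a1* held 1 and *Oat* held none, and a second *Ldha* window held neither motif. Among the other 7 members, a second window of *Hk1* held the core and none held the E-box. All 3 printed windows were rich in CpG, with 42 CpG in *Slc16a1*, 30 in *Ldha* and 22 in *Oat* against a median of 7 over all windows. A match is a description of the letters and not of binding.

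Per kb of exon, most members were among the lower tested genes. In wildtype SCD islets the median tested gene stood at 1.5 CPM per kb. *Oat* averaged 4.45 ± 0.524 CPM per kb (SD, n = 3), *Ldha* 2.08 ± 0.508 and *Igfbp4* 1.59 ± 1.37, at percentiles 75.5, 57.5 and 51.2 of 17365 tested genes of known length. The other 7 members lay between percentile 21.0 for *Cxcl12* and 35.7 for *Smad3*. In wildtype HFD islets *Pdgfra* and *Slc16a1* lay lowest of the members, at percentiles 3.39 and 6.78.

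Members made up very different shares of the summed level of their gene families. *Hk1* made up 35.9% to 88.7% of the summed CPM per kb of *Hk1*, *Hk2*, *Hk3* and *Hkdc1* in the 12 libraries of the first table, lowest in the 2 libraries with intestinal transcripts. *Ldha* was 21.7% to 53.7% of the summed level of *Ldha* and *Ldhb*, the lactate dehydrogenase subunit of oxidative tissues. *Slc16a1* ran from 15.7% to 83.4% of the sum with *Slc16a7* (MCT2) and *Slc16a3* (MCT4). *Smad3* was 12.5% to 29.4% of the sum with *Smad2*, *Zfp36l1* 3.57% to 9.93% of the sum with *Zfp36* and *Zfp36l2*, and *Pdgfra* 1.97% to 39.6% of the sum with *Pdgfrb*.

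**Figure D1:**
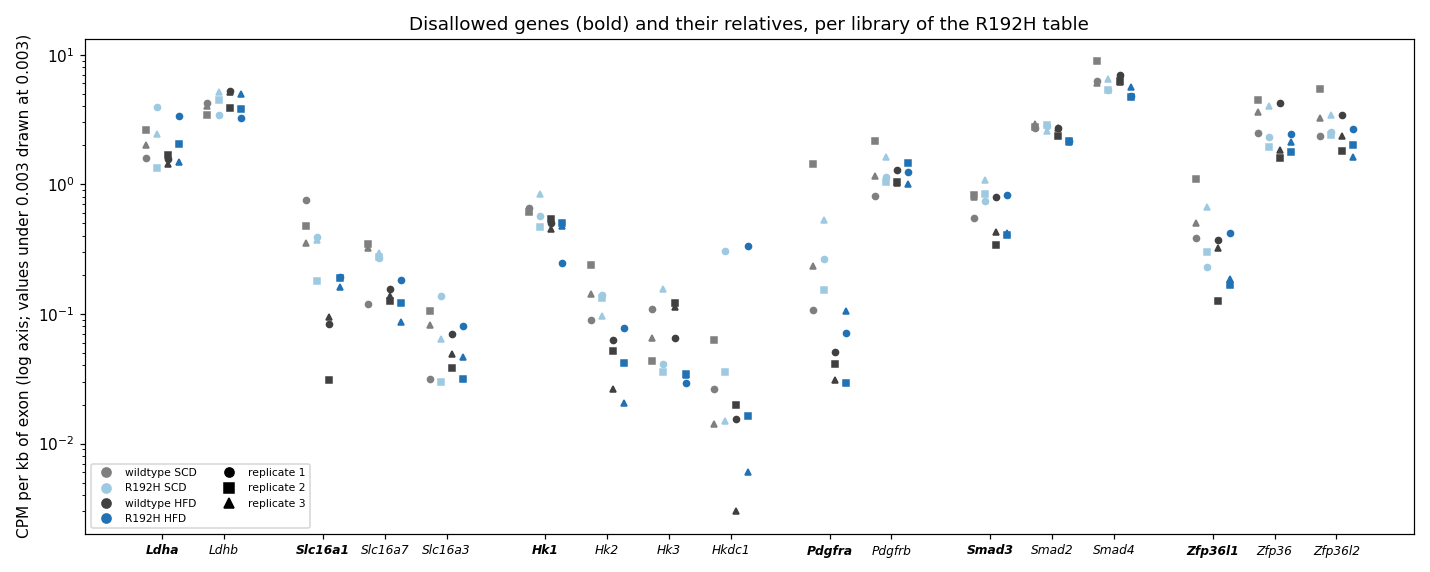
CPM per kb of exon (log axis) of members (bold) and relatives in the 12 libraries of the first table. Each point is a library, coloured by group and offset within a gene from wildtype SCD at the left to *Pax4* R192H HFD at the right. *Hk1* lies above *Hk2* and *Hk3* in all 12 libraries, and *Slc16a1* is lowest in wildtype HFD.

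*Ldha* encodes the lactate dehydrogenase subunit that favours making lactate from pyruvate. Its level was 5.29, 8.64 and 6.69 CPM in wildtype SCD and 13.1, 4.45 and 8.13 CPM in *Pax4* R192H SCD libraries, in the order of the replicates. On HFD it was 5.23, 5.56 and 4.71 CPM in wildtype and 11.2, 6.71 and 4.94 CPM in *Pax4* R192H. The groups overlapped on both diets, and the 2 highest values of the table, 13.1 and 11.2 CPM, were those of the libraries with intestinal transcripts. In the second table it was 11.5 and 10.7 CPM in control and 11, 12.5 and 18.1 CPM in *Pax4* βiKO, highest in the library with lymphocyte transcripts. Of 13641 other genes of at least 1 CPM, the one most like *Ldha* over the 12 libraries was *Slc5a1*, the glucose carrier of the intestinal brush border (Pearson r = 0.95 of log2 CPM, a description in which all genes share libraries and depth).

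*Slc16a1* encodes MCT1, which carries lactate and pyruvate across the plasma membrane. It stood at 3.37, 2.12 and 1.57 CPM in wildtype SCD and at 1.73, 0.790 and 1.64 CPM in *Pax4* R192H SCD libraries. In wildtype HFD it was 0.373, 0.136 and 0.417 CPM, resting on 14, 4 and 16 expected counts, and in *Pax4* R192H HFD it was 0.859, 0.839 and 0.709 CPM, resting on 24, 20 and 23. The 3 wildtype HFD libraries were the lowest of the 12, and *Pax4* R192H HFD lay above them without overlap. In the second table it was 1.82 and 1.52 CPM in control and 2.32, 1.60 and 2.51 CPM in *Pax4* βiKO, with overlap. *Pcdhb17*, a protocadherin gene, had the most similar pattern (r = 0.94, 12 libraries).

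*Hk1* encodes hexokinase 1, which phosphorylates glucose with high affinity. It was 5.59, 5.2 and 5.33 CPM in wildtype SCD, 4.88, 3.97 and 7.14 CPM in *Pax4* R192H SCD, 4.32, 4.57 and 3.85 CPM in wildtype HFD and 2.11, 4.28 and 4.04 CPM in *Pax4* R192H HFD. The 3 wildtype HFD libraries lay below the 3 wildtype SCD libraries, and the lowest value of all was *Pax4* R192H HFD replicate 1. Control libraries had 7.84 and 8.85 CPM and *Pax4* βiKO libraries 7.38, 8.89 and 11.4 CPM. *Slitrk6* was the gene most like it (r = 0.93).

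*Acot7* encodes a thioesterase that frees fatty acids from acyl-CoA. It was the steadiest member between groups, with means of 1.3 ± 0.183 CPM in wildtype SCD, 1.29 ± 0.591 in *Pax4* R192H SCD, 1.37 ± 0.238 in wildtype HFD and 1.43 ± 0.396 in *Pax4* R192H HFD (SD, n = 3 each). Single libraries lay between 0.632 and 1.88 CPM, and every pair of groups overlapped. In the second table control libraries had 2.79 and 3.55 CPM and *Pax4* βiKO libraries 3.15, 2.81 and 4.75 CPM.

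*Oat* encodes ornithine aminotransferase, the mitochondrial enzyme that turns ornithine into glutamate semialdehyde. It was 10.8, 11.5 and 9.12 CPM in wildtype SCD and 9.36, 8.13 and 13.2 CPM in *Pax4* R192H SCD libraries, which overlapped. On HFD it was 7.49, 8.94 and 7.94 CPM in wildtype and 15, 13 and 13.7 CPM in *Pax4* R192H, without overlap. It was 18.3 and 17.7 CPM in control and 23.2, 24.6 and 25.9 CPM in *Pax4* βiKO libraries, again without overlap. *Rapgef5* was the gene most like it over the 12 libraries (r = 0.93).

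*Pdgfra* encodes a receptor for platelet-derived growth factor that fibroblasts carry. It ranged more widely than any other member, by 48.7-fold over the 12 libraries, with 1.08, 14.3 and 2.37 CPM in wildtype SCD and 2.67, 1.53 and 5.34 CPM in *Pax4* R192H SCD. On HFD it was 0.507, 0.409 and 0.313 CPM in wildtype and 0.716, 0.294 and 1.05 CPM in *Pax4* R192H. All 6 HFD libraries lay below all 6 SCD libraries. The highest, wildtype SCD replicate 2, and the next, *Pax4* R192H SCD replicate 3, were those of the highest stromal sum, and the stromal proteoglycan gene *Dcn* had the most similar pattern (r = 0.98). Control libraries had 3.98 and 3.02 CPM and *Pax4* βiKO libraries 1.77, 4.51 and 5.89 CPM.

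*Cxcl12* and *Igfbp4* encode secreted proteins, a chemokine that draws leukocytes and progenitors and a binding protein that holds insulin-like growth factors. *Cxcl12* was 1.42, 4.21 and 1.91 CPM in wildtype SCD, 1.88, 0.921 and 3.02 CPM in *Pax4* R192H SCD, 1.44, 0.614 and 0.521 CPM in wildtype HFD and 1.75, 0.629 and 1.02 CPM in *Pax4* R192H HFD. *Igfbp4* was 3.10, 13.9 and 3.98 CPM, 2.52, 2.53 and 6.07 CPM, 1.89, 2.35 and 2.68 CPM, and 3.22, 3.27 and 2.78 CPM in the same 4 groups. For both, the 2 highest libraries were the 2 of the highest stromal sum, and for *Igfbp4* the HFD genotypes did not overlap. In the second table *Cxcl12* was 4.27 and 3.94 CPM in control and 2.39, 4.38 and 3.83 CPM in *Pax4* βiKO, and *Igfbp4* was 7.06 and 6.0 CPM and 5.75, 9.80 and 9.53 CPM. Most like them over the 12 libraries were *Brwd3* for *Cxcl12* (r = 0.95) and the oncostatin M receptor gene *Osmr* for *Igfbp4* (r = 0.96).

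*Smad3* encodes a signal transducer of TGF-β receptors. It was 3.03, 4.61 and 4.39 CPM in wildtype SCD, 4.14, 4.66 and 5.99 CPM in *Pax4* R192H SCD, 4.43, 1.88 and 2.37 CPM in wildtype HFD and 4.54, 2.27 and 2.31 CPM in *Pax4* R192H HFD. Replicate 1 of each HFD group lay within the SCD range while the other 4 HFD libraries lay below all 6 SCD libraries. In control libraries it was 7.10 and 5.73 CPM and in *Pax4* βiKO libraries 6.03, 4.26 and 4.20 CPM. The gene model *Gm47585* was most like it (r = 0.95).

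*Zfp36l1* encodes an RNA-binding protein that speeds decay of AU-rich mRNAs. It was 1.15, 3.27 and 1.5 CPM in wildtype SCD, 0.686, 0.895 and 1.98 CPM in *Pax4* R192H SCD, 1.12, 0.375 and 0.964 CPM in wildtype HFD and 1.25, 0.504 and 0.555 CPM in *Pax4* R192H HFD. Its 2 highest libraries were again those of the highest stromal sum, and *Notch2* was most like it (r = 0.96). Control libraries had 3.68 and 2.85 CPM and *Pax4* βiKO libraries 1.46, 4.05 and 3.16 CPM. Among the members themselves, *Pdgfra* and *Cxcl12* (r = 0.89), *Cxcl12* and *Zfp36l1* (r = 0.82), and *Pdgfra* and *Igfbp4* (r = 0.80) had similar patterns over the 12 libraries, while *Ldha* and *Hk1* did not (r = -0.10).

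**Figure D2:**
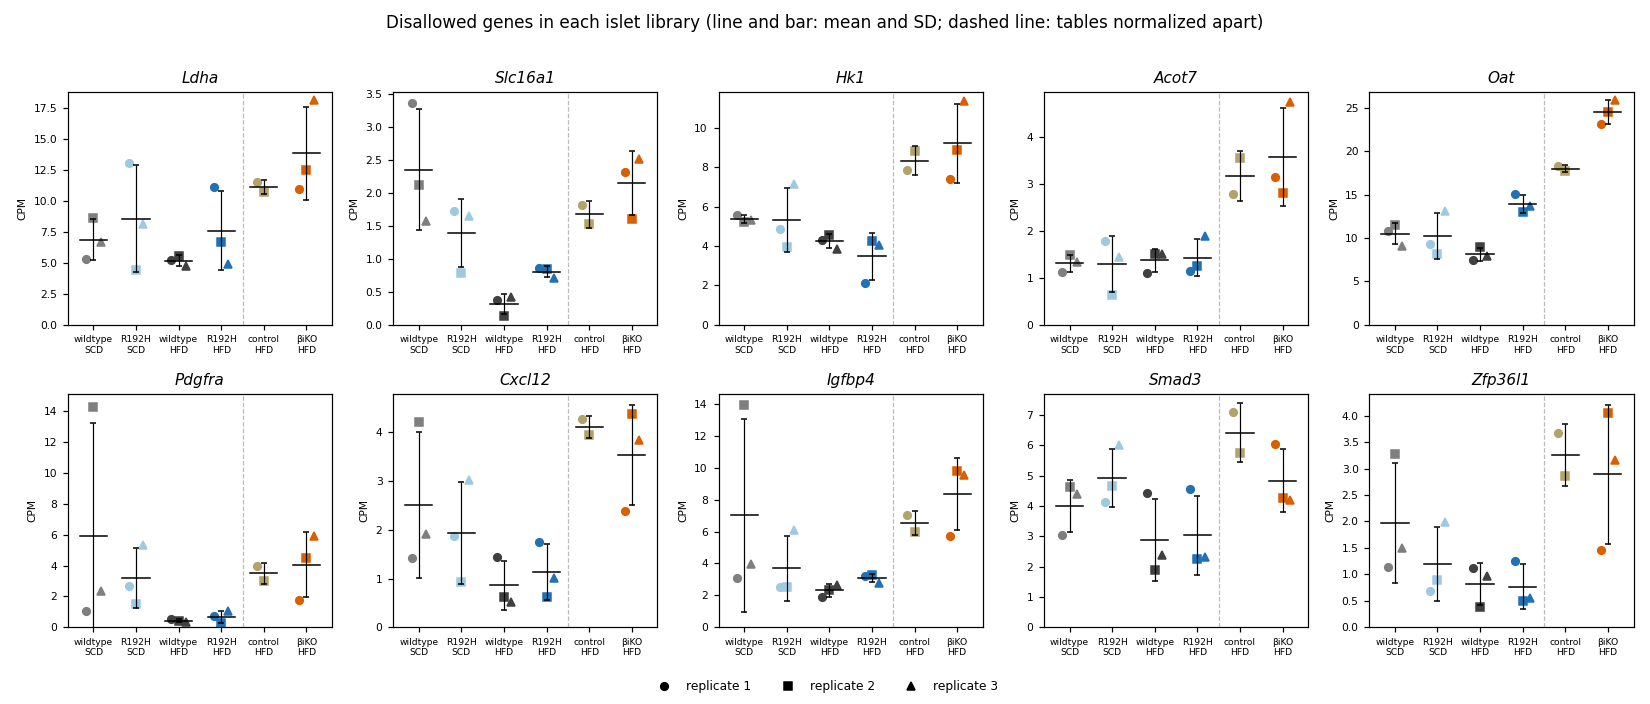
CPM of the 10 members in each of the 17 libraries, with the group mean (line) and SD (bar). The dashed line separates the 2 tables, which were normalized apart. *Oat* is higher without overlap in *Pax4* R192H than in wildtype on HFD and in *Pax4* βiKO than in control, and single wildtype SCD or *Pax4* R192H SCD libraries carry the high values of *Pdgfra*, *Igfbp4* and *Ldha*.

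The SCD comparison asked whether *Pax4* R192H changed these genes before metabolic stress. No member was called (edgeR's quasi-likelihood test, Benjamini-Hochberg adjusted p below 0.05 and absolute log2 fold change above 0.5), and none had an unadjusted p below 0.05. Over all 19137 tested genes 0% were called, 3.29% had an unadjusted p below 0.05, and DESeq2 called 19 genes and no member. The members' log2 fold changes had a median of -0.21, against -0.0038 over all tested genes, and 2 of 10 were above 0. They ran from -0.93 (SE 0.49) for *Igfbp4* to 0.32 (SE 0.35) for *Ldha*. Every member overlapped between the genotypes, while 7.83% of all tested genes did not. The negative values of *Pdgfra*, *Igfbp4* and *Cxcl12* rested on wildtype SCD replicate 2: without it they were 0.87, 0.05 and 0.21 in place of -0.91, -0.93 and -0.38. *Ldha* without *Pax4* R192H SCD replicate 1 was -0.13. Immune markers also differed between the genotypes on SCD. The sum of 9 macrophage and leukocyte markers was 67.5 to 69.9 CPM in *Pax4* R192H and 95.5 to 151 CPM in wildtype, with 9 of 9 log2 fold changes below 0, 4 at an unadjusted p below 0.05 and none called. The sum of 5 lymphocyte markers was 0.342 to 0.686 CPM against 3.25 to 9.47 CPM, *Cd3e* being at 0 throughout *Pax4* R192H SCD. The part of immune cells in the members' values was not tested.

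On HFD, 1 of 10 members was called in *Pax4* R192H against wildtype, *Oat*, which rose by 0.78 on the log2 scale (SE 0.18, adjusted p = 0.0414). Over all tested genes 2.28% were called, 1.46% as higher. *Slc16a1* had a larger difference, 1.34 (SE 0.48), but an adjusted p of 0.173 at its low counts. *Slc16a1*, *Oat* and *Igfbp4* were higher without overlap, 3 of 10 members, where 22.9% of all tested genes did not overlap and 13% were higher without overlap. This was in CPM, and normalization factors were lower in *Pax4* R192H HFD than in wildtype HFD. Expected counts of *Igfbp4* overlapped, at 71, 69 and 103 in wildtype and 90, 78 and 90 in *Pax4* R192H. Those of *Oat*, 281, 262 and 305 against 420, 309 and 444, and of *Slc16a1* did not. The members' median was 0.41, against -0.014 over all tested genes, and 8 of 10 were above 0. *Pdgfra* (0.77, SE 0.88), *Ldha* (0.56, SE 0.36), *Igfbp4* (0.42, SE 0.50), *Cxcl12* (0.40, SE 0.57), *Smad3* (0.07, SE 0.35), *Acot7* (0.07, SE 0.39), *Zfp36l1* (-0.10, SE 0.58) and *Hk1* (-0.29, SE 0.27) were not called. *Ldha* without *Pax4* R192H HFD replicate 1, the library with intestinal transcripts, was 0.17.

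The call of *Oat* was close to the threshold. It was kept with another normalization, RLE size factors (0.774, adjusted p = 0.0420). A fit to library totals without normalization factors was not run, so the part of these factors in the difference was not tested. Leaving out wildtype HFD replicate 1, 2 or 3 gave adjusted p-values of 0.139, 0.05 and 0.142, none below the threshold, and leaving out *Pax4* R192H HFD replicate 1, 2 or 3 gave 0.145, 0.106 and 0.108, while the difference stayed between 0.72 and 0.85. Acinar RNA moved with it: 21 acinar markers summed to between 38034 and 104084 CPM in *Pax4* R192H HFD and to between 16641 and 25518 CPM in wildtype HFD, with none at 0. With the acinar level as a covariate *Oat* was 0.59 (adjusted p = 0.673) and 0 genes of the table were called. That level, a mean log2 CPM, was 9.31 to 10.7 in *Pax4* R192H HFD and 7.85 to 8.74 in the other groups of the table. It nearly follows the group tested, so this fit cannot tell acinar RNA from genotype. In replicate order, the *Pax4* R192H HFD libraries had acinar sums of 104084, 38034 and 39799 CPM beside 15, 13 and 13.7 CPM of *Oat*. The sum of 9 duct markers was 284 to 389 CPM in *Pax4* R192H HFD and 187 to 223 CPM in wildtype HFD, with none at 0, 7 of 9 log2 fold changes above 0, 4 at an unadjusted p below 0.05 and none called. The part of acinar RNA was thus not tested, nor was that of duct cells.

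Of 8 tested genes of arginine, ornithine and proline metabolism, 2 were called higher and 1 lower in *Pax4* R192H against wildtype on HFD. *Pycr1*, which makes proline in mitochondria, was 11.1, 11.2 and 8.93 CPM in wildtype HFD and 24.8, 23.3 and 20.2 CPM in *Pax4* R192H HFD, and rose by 1.13 (SE 0.15, adjusted p = 0.00411). *Odc1*, which makes the polyamine putrescine from ornithine, was 50.6, 66.1 and 54.0 CPM against 95.2, 88.6 and 85.4 CPM and rose by 0.66 (SE 0.15, adjusted p = 0.0414). Neither gene's groups overlapped. *Glul*, glutamine synthetase, was 214, 174 and 208 CPM against 101, 108 and 131 CPM and fell by 0.81 (SE 0.17, adjusted p = 0.0311). *Aldh18a1*, which makes glutamate semialdehyde from glutamate, was 0.48 higher in the fit and was not called. With the acinar level as a covariate none of these calls was kept, in a fit that cannot tell acinar RNA from genotype.

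**Figure D3:**
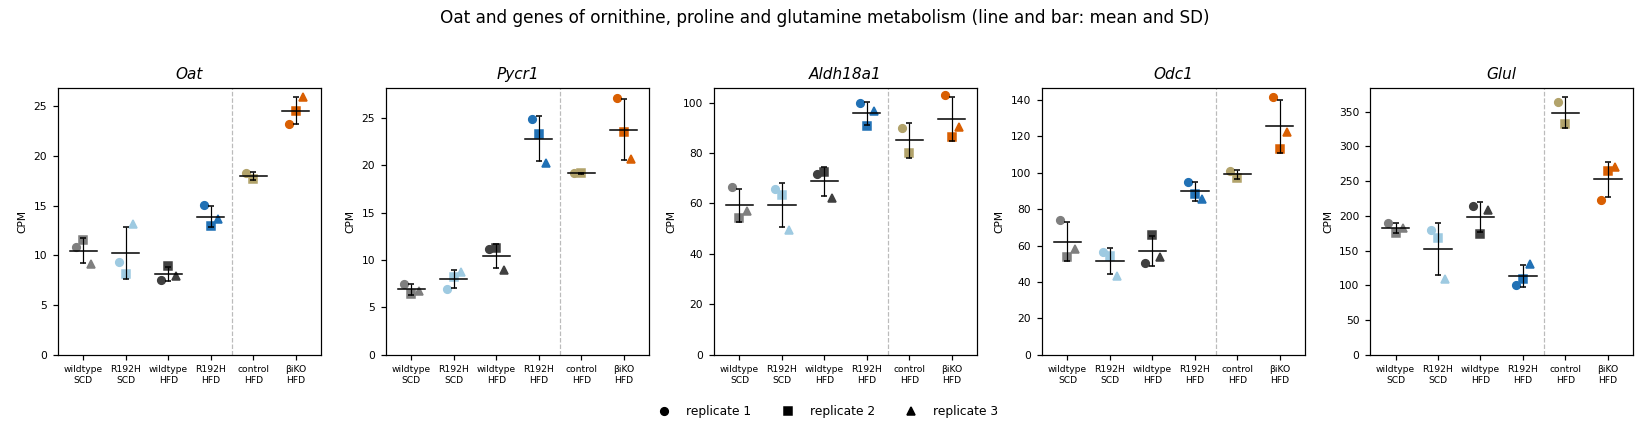
CPM of *Oat* and 4 genes of ornithine, proline and glutamine metabolism in each library, with the group mean (line) and SD (bar); the dashed line separates the 2 tables. In *Pax4* R192H HFD, *Oat*, *Pycr1*, *Aldh18a1* and *Odc1* lie above and *Glul* below every wildtype HFD library.

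The other relatives of the members showed no call in this comparison. None of 13 tested genes of lactate and pyruvate handling, 3 other hexokinase genes, 9 other acyl-CoA thioesterases, 5 PDGF genes, 2 receptors of CXCL12 (*Cxcr4* and *Ackr3*), 10 genes of the insulin-like growth factor axis, 14 TGF-β and SMAD genes or 5 DNA methyltransferase and Polycomb genes was called in *Pax4* R192H against wildtype on either diet. *Hkdc1*, a hexokinase-like gene, reached 1.58 and 1.72 CPM in the 2 libraries with intestinal transcripts and 0.322 CPM or less in the other 10. Of 10 β cell markers, 2 were called lower on HFD, *Slc2a2*, which encodes the glucose carrier GLUT2 (-1.28, SE 0.19, adjusted p = 0.00588), and *Slc30a8*, which encodes the zinc carrier of insulin granules (-0.61, SE 0.14, adjusted p = 0.0432). The 10 were split, with 6 below 0 and 4 above 0, up to 0.50, and none called higher. Their sum was 99293 to 110484 CPM in *Pax4* R192H HFD and 65469 to 93846 CPM in wildtype HFD.

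Between HFD and SCD in wildtype islets, 1 of 10 members was called, *Slc16a1*, which fell by 2.89 on the log2 scale (SE 0.48, adjusted p = 0.0282), where 0.371% of all tested genes were called and 0.167% as lower. Mean CPM was 2.35 ± 0.922 on SCD and 0.309 ± 0.151 on HFD (SD, n = 3 each). *Slc16a1*, *Hk1*, *Oat*, *Pdgfra*, *Igfbp4* and *Zfp36l1*, 6 of 10, were lower without overlap, against 17.9% of all tested genes without overlap and 9.46% lower without overlap. The median was -0.86, against 0.011 over all tested genes, and only *Acot7*, at 0.07 (SE 0.38), was above 0. *Pdgfra* was -3.84 (SE 0.85, adjusted p = 0.0736), *Igfbp4* -1.60 (SE 0.50), *Cxcl12* -1.54 (SE 0.57) and *Zfp36l1* -1.25 (SE 0.57), none called by edgeR. DESeq2 called 3 members, *Slc16a1*, *Pdgfra* (-3.86, adjusted p = 0.0031) and *Igfbp4* (-1.61, adjusted p = 0.0329), and 580 genes of the table. *Smad3* was -0.47, *Ldha* -0.41, *Oat* -0.37 and *Hk1* -0.34. Without wildtype SCD replicate 2, the stromal library, *Pdgfra* was -2.07 and *Igfbp4* -0.62. Without wildtype SCD replicate 1, *Pdgfra* was called too (-4.32, adjusted p = 0.0320).

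The call of *Slc16a1* was lost without wildtype HFD replicate 2 (-2.56, adjusted p = 0.0846) and without wildtype HFD replicate 3 (-3.15, adjusted p = 0.0971), and when only the 2 wildtype groups were fitted (adjusted p = 0.125). Immune markers moved with it. Of 9 macrophage and leukocyte markers *Ptprc*, which encodes CD45, fell by 1.90 (SE 0.26, adjusted p = 0.0112) and *Lyz2*, lysozyme, by 2.23 (SE 0.31, adjusted p = 0.0112). Their 9-gene sum was 95.5 to 151 CPM in wildtype SCD and 69.1 to 77.1 CPM in wildtype HFD, and 5 lymphocyte markers summed to 3.25 to 9.47 CPM against 0.587 to 1.35 CPM, *Cd3e* being at 0 throughout wildtype HFD. In *Pax4* R192H SCD the same sums were 67.5 to 69.9 CPM and 0.342 to 0.686 CPM, beside 0.790 to 1.73 CPM of *Slc16a1*. In *Pax4* R192H HFD the 9-gene sum was 60.9 to 83.2 CPM, beside 0.709 to 0.859 CPM of *Slc16a1*. Wildtype HFD had 0.136 to 0.417 CPM of it. The part of immune cells in the fall of *Slc16a1* was not tested.

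In *Pax4* R192H islets no member was called between HFD and SCD, where 15.7% of all tested genes were. *Pdgfra* came nearest, at -2.17 (SE 0.81, adjusted p = 0.0812), and was the 1 member without overlap, against 41.8% of all tested genes. *Oat* was 0.45 (SE 0.18, adjusted p = 0.101). It was called without *Pax4* R192H SCD replicate 3 (0.67, adjusted p = 0.0212), whose 13.2 CPM was the highest of its SCD group. *Slc16a1* was -0.79 (SE 0.45), *Cxcl12* -0.76, *Smad3* -0.69, *Hk1* -0.61, *Zfp36l1* -0.61, *Igfbp4* -0.25, *Ldha* -0.17 and *Acot7* 0.16. The median was -0.61, against -0.058 over all tested genes. Around the members, 3 of 8 tested ornithine and proline genes rose, *Pycr1* by 1.52 (SE 0.15), *Odc1* by 0.80 (SE 0.15) and *Aldh18a1* by 0.68 (SE 0.13). *Bsg*, which encodes basigin, the protein that brings MCT1 to the membrane, rose by 0.70 (SE 0.13, adjusted p = 0.00378), from 180 to 204 CPM on SCD to 293 to 348 CPM on HFD. The thioesterase genes *Acot8* and *Acot11* rose by 0.77 and 0.55, and *Igfbp3* and the IGFBP protease gene *Pappa2* by 0.69 and 1.04. *Tgfbr1*, a TGF-β receptor gene, fell by 0.71, the SMAD repressor gene *Skil* by 0.64 and the DNA methyltransferase gene *Dnmt3a* by 0.61. In the same comparison 21 of 21 acinar markers were above 0, and 20 were called higher. The 10 β cell markers were split, with 3 called higher and 2 called lower. *Ins1*, *Ins2* and *Iapp* rose by 1.01, 1.17 and 0.87, while 4 of the 10 were below 0, down to -1.34.

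The interaction asked whether the genotypes responded differently to HFD. No member was called, and 0.131% of all tested genes were. *Slc16a1* had the largest estimate, 2.10 (SE 0.64, adjusted p = 0.223), followed by *Pdgfra* (1.67, SE 1.14), *Igfbp4* (1.35, SE 0.70) and *Oat* (0.82, SE 0.25, adjusted p = 0.225). With 1 library left out, *Pdgfra* went down to -0.11 and *Igfbp4* down to 0.37. *Slc16a1* and *Oat* had unadjusted p-values of 0.00595 and 0.00628, and 11.2% of all tested genes had one below 0.05. The 9 macrophage and leukocyte markers had a median interaction of 0.64, with 9 of 9 above 0, 3 at an unadjusted p below 0.05 and none called, and their part in the estimate of *Slc16a1* was not tested. The 21 acinar markers had a median of 1.72, with 21 of 21 above 0, 18 at an unadjusted p below 0.05 and none called. Their part in the estimate of *Oat* was not tested. *Cxcl12* was 0.78, *Zfp36l1* 0.65, *Ldha* 0.24, *Acot7* 0.09, *Smad3* -0.22 and *Hk1* -0.27. These comparisons share groups, the wildtype HFD libraries entering 3 of them, so their values are not independent of each other.

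In *Pax4* βiKO against control islets no member was called, and 0.0893% of all tested genes were. *Oat* came nearest, with a difference of 0.45 (SE 0.10, adjusted p = 0.198) and means of 18 ± 0.391 CPM in control (SD, n = 2) and 24.6 ± 1.37 CPM in *Pax4* βiKO (SD, n = 3). It was the only member without overlap, against 32.6% of all tested genes without overlap and 15.9% higher without overlap. DESeq2 gave it an adjusted p of 0.0193 at 0.44, below the fold change threshold. The 21 acinar markers summed to 24403 and 109238 CPM in control and to between 17339 and 85155 CPM in *Pax4* βiKO, which overlapped. *Slc16a1* was 0.36 (SE 0.30), *Igfbp4* 0.36 (SE 0.25), *Ldha* 0.32 (SE 0.21), *Pdgfra* 0.22 (SE 0.45), *Acot7* 0.17 (SE 0.29) and *Hk1* 0.14 (SE 0.20), while *Zfp36l1* was -0.17 (SE 0.40), *Cxcl12* -0.21 (SE 0.28) and *Smad3* -0.41 (SE 0.22). The median was 0.20, against 0.011 over all tested genes. *Ldha*, *Slc16a1*, *Hk1*, *Acot7*, *Oat* and *Pdgfra* were each highest in *Pax4* βiKO replicate 3, the library with lymphocyte transcripts. That library also had the highest macrophage and leukocyte sum of its table, 221 CPM against 136 to 157 CPM. Its stromal sum was the highest too, 417 CPM against 283 to 408 CPM. The part of these cells in the members' values was not tested. No gene of the other lists around the members was called.

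**Figure D4:**
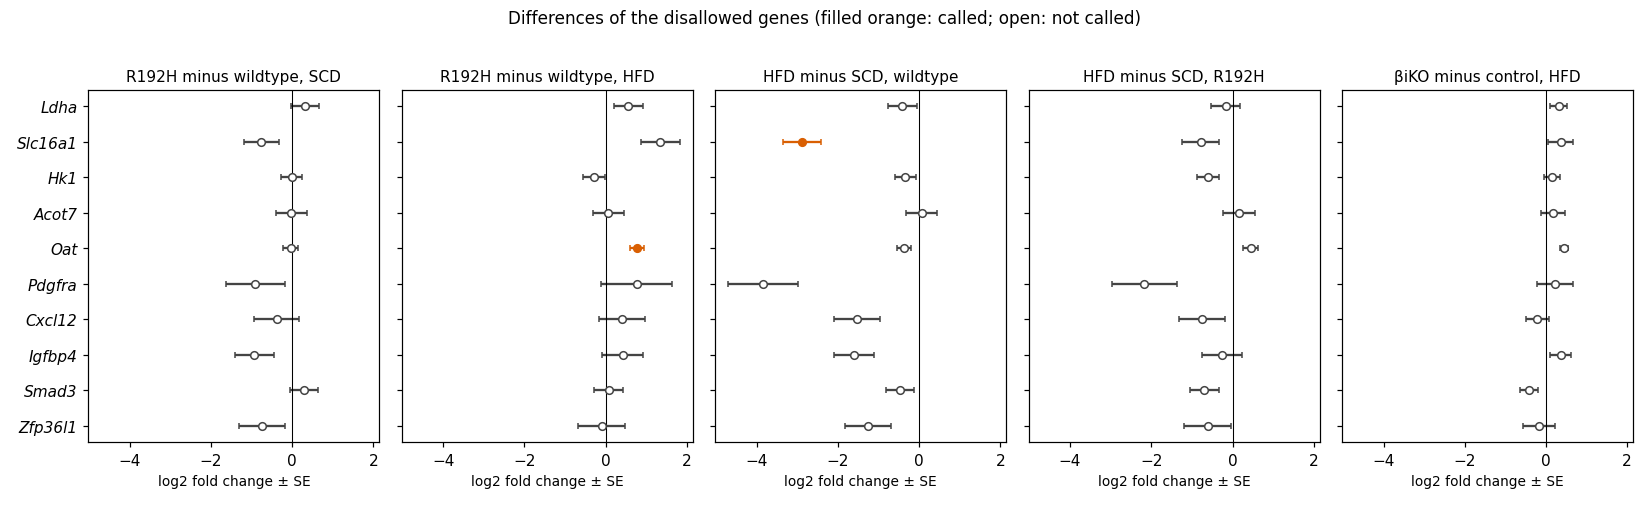
Log2 fold change of each member (points) with its SE (bars) in the 5 comparisons of 2 groups. Orange points passed the test, *Oat* in *Pax4* R192H against wildtype on HFD and *Slc16a1* in HFD against SCD in wildtype. SEs are widest for *Pdgfra* in the first table.

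Beside the 10 members, 8 further genes described as disallowed or repressed in β cells were read, *Mgst1*, *Maf*, *Ndrg2*, *Lmo4*, *Tgm2*, *Cat*, *Yap1* and *Rest*. None was called in any of the 6 comparisons. Their median log2 difference was -0.48 in *Pax4* R192H against wildtype on SCD and 0.18 on HFD, -0.96 and -0.40 in HFD against SCD in wildtype and in *Pax4* R192H, and 0.18 in *Pax4* βiKO against control. The 10 stromal markers, of which none was called in any comparison, had medians of -0.43, 0.26, -1.19, -0.65 and 0.26 in the same order. The medians of the 10 members were -0.21, 0.41, -0.86, -0.61 and 0.20.

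**Figure D5:**
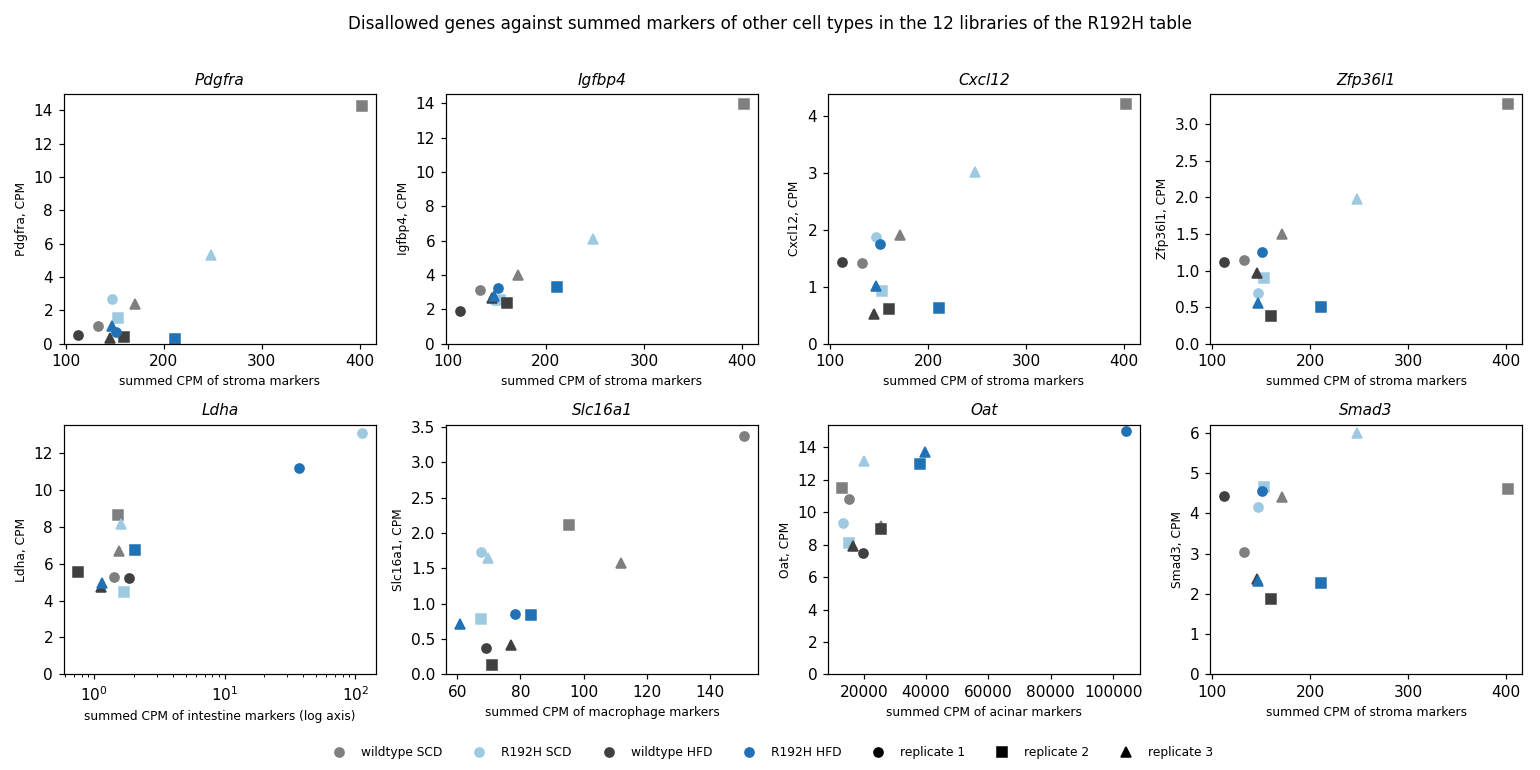
Level of a member (CPM, vertical) against the summed CPM of markers of another cell type (horizontal, a log axis for intestine) in the 12 libraries of the first table, coloured by group. Wildtype SCD replicate 2, at 402 CPM of stromal markers, is highest in *Pdgfra*, *Igfbp4*, *Cxcl12* and *Zfp36l1*, and the 2 libraries with intestinal transcripts are highest in *Ldha*.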

How the data were processed

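RNA of isolated mouse islets was sequenced in 17 libraries, grouped by their labels. The authors aligned paired reads of stranded total RNA libraries to mm10 with STAR v2.7.1, used RSEM v1.3.3 to estimate transcript abundance, and collapsed transcripts to genes with tximport. They deposited 2 tables of expected counts, which are not scaled for depth. The annotation release is not given in the sources used here.

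Expected counts were rounded to whole numbers. Each table was fitted on its own and whole in edgeR v4.0.16, under R v4.3.3, with TMM normalization, filterByExpr at a minimum count of 10, a coefficient per group and the quasi-likelihood test, and p-values were adjusted over all tested genes. A call needed an adjusted p below 0.05 together with a log2 fold change beyond 0.5 in either direction. RSEM divides reads between similar sequences, so a gene with a near copy is less certain. Log2 CPM used a prior count of 2. Symbols, positions and exon lengths came from GENCODE M21 (GRCm38), which matched 65.8% and 66.7% of identifiers, and promoter windows came from RefSeq. CPM per kb divides by the summed exon length.

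The members and all gene lists were chosen with earlier results of these data known, and the intestinal and lymphocyte lists after the libraries had been inspected. All members were named in every comparison. Of the other lists besides cell type markers, genes called in a comparison and direct relatives or receptors of a member were named. Of the cell type markers, only some set beside a member were named, so not every called marker is named. The gene of at least 1 CPM with the highest Pearson correlation with each member was named too. Alternatives were a block for the replicate number, acinar and stromal marker covariates, DESeq2 v1.42.0, RLE size factors, fits of only the groups compared, no filter, a filter of at least 10 counts in each library, and leaving out each library. Leaving aside both libraries with intestinal transcripts, or both of the highest stromal sum, was added after seeing the data. Some listed genes are not reported here.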

Additional observations from a re-analysis of the deposited data

How the results depend on the processing

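Limits first. Members rest on few counts, down to 4 in a library for *Slc16a1*, groups hold 2 or 3 libraries, and differences within the SEs given were not detectable at this depth. Of 960 member differences recomputed under other settings, 869 kept their direction and side of the threshold, 67 changed sign, none of them called in either setting, 13 lost a call and 11 gained one.

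The replicate number shared across groups did not pair the libraries (correlations of same-numbered deviations of 0.17, -0.26 and -0.12 between the SCD genotypes, 0.19, 0.11 and -0.05 between the HFD genotypes and 0.07 and 0.04 in the βiKO table). With the replicate block, *Pax4* R192H against wildtype on HFD gave 0 members (*Oat* 0.77, adjusted p = 0.0999) and 147 genes in place of 437, the interaction gave 0 genes in place of 25, HFD against SCD in wildtype 22 in place of 71, and βiKO against control 88 in place of 18, with *Hk1* at -0.039, *Acot7* at -0.084 and *Pdgfra* at -0.24.

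Members called changed as follows. For *Pax4* R192H against wildtype on HFD they were 0 with the acinar covariate and with the libraries with intestinal transcripts left aside (*Oat* 0.73, adjusted p = 0.169), and 0 to 0 with each library left out. For HFD against SCD in wildtype they were 4 with no filter (with *Pdgfra*, *Cxcl12* and *Igfbp4*), 3 with DESeq2 (with *Pdgfra* and *Igfbp4*), 0 with at least 10 counts in every sample, which drops *Slc16a1*, 0 with only the groups compared, 0 with the intestinal libraries left aside (*Slc16a1* adjusted p = 0.0609), and 0 to 2 with each library left out. For HFD against SCD in *Pax4* R192H they were 1 with no filter and with only the groups compared (*Pdgfra*, -2.16), 1 with the stromal libraries left aside (*Oat*, 0.67), and 0 to 1 with each library left out. For the interaction no filter gave 1 (*Igfbp4*, adjusted p = 0.0451).

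Counts over all tested genes moved too. With no filter they were 261 for *Pax4* R192H against wildtype on SCD, 1279 on HFD, 708 for the interaction, 924 for HFD against SCD in wildtype and 697 for βiKO against control. DESeq2 gave 19, 1004, 346, 580 and 243 in that order. On SCD only the groups compared gave 1. On HFD the acinar covariate gave 0, the stromal covariate 719, the intestinal libraries left aside 79, and leaving out each library 93 to 498. For the interaction, at least 10 counts in every sample gave 80, the acinar covariate 0, the stromal covariate 65, the intestinal libraries left aside 0, and leaving out each library 0 to 101. For HFD against SCD in wildtype the same settings gave 115, 39, 35, 26 and 5 to 125, and only the groups compared 1. In *Pax4* R192H the acinar covariate gave 69, the intestinal libraries left aside 1326 and leaving out each library 1706 to 2248, against 2996. For βiKO leaving out each library gave 2 to 28.

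Sign changes of members that were not called were as follows. On SCD, *Acot7* was 0.0057 with the stromal covariate, *Ldha* -0.13, *Hk1* 0.043 and *Oat* 0.022 with the intestinal libraries left aside, and *Pdgfra* 0.28 with the stromal libraries left aside. With each library left out on SCD, *Ldha* ran from -0.13 to 0.63, *Hk1* from -0.28 to 0.16, *Acot7* from -0.34 to 0.31, *Oat* from -0.26 to 0.10, *Pdgfra* from -1.50 to 0.87, *Cxcl12* from -0.84 to 0.21 and *Igfbp4* from -1.48 to 0.051. On HFD, the acinar covariate gave *Ldha* -0.044, *Hk1* 0.011, *Cxcl12* -0.38 and *Smad3* -0.72, and the intestinal libraries left aside gave *Cxcl12* -0.027 and *Smad3* -0.32. With each library left out on HFD, *Acot7* ran from -0.19 to 0.21, *Cxcl12* from -0.051 to 1.00, *Smad3* from -0.34 to 0.51 and *Zfp36l1* from -0.63 to 0.19. In the interaction, the acinar covariate gave *Ldha* -0.39, *Hk1* 0.038 and *Zfp36l1* -0.050, the intestinal libraries left aside *Zfp36l1* -0.15 and the stromal libraries left aside *Hk1* 0.013. With each library left out, *Ldha* ran from -0.14 to 0.72, *Acot7* from -0.22 to 0.44, *Pdgfra* from -0.11 to 2.26 and *Smad3* from -0.63 to 0.22. For HFD against SCD, *Acot7* in wildtype ran from -0.030 to 0.21. In *Pax4* R192H *Ldha* ran from -0.55 to 0.32, *Acot7* from -0.14 to 0.51 and *Igfbp4* from -0.43 to 0.29, and *Igfbp4* was 0.52 with the stromal covariate and 0.29 with the stromal libraries left aside. For βiKO, *Pdgfra* was -0.10 with the acinar and -0.30 with the stromal covariate, and with each library left out *Hk1* ran from -0.035 to 0.28, *Acot7* from -0.088 to 0.36, *Pdgfra* from -0.15 to 0.57 and *Zfp36l1* from -0.50 to 0.14. The causes were not tested.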
